A study of Rattus norvegicus with 8 samples.

Results

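The genes described here encode the proteins of the cytosolic ribosome, measured in the medial thalamus of 8 anaesthetised rats. Probes were taken by name from the annotation of the array: every probe outside the control spots whose gene name began with Rpl, Rplp or Rps followed by a digit, with the ribosomal S6 kinases (Rps6k names) left out. The rule reads names only, although earlier results of these data were known when the family was chosen. It gave 110 probes on 128 spots for 74 gene names, of 41012 probes on 43379 spots and 35561 gene names in all. The large subunit (Rpl and Rplp names) had 67 probes for 44 names and the small subunit (Rps names) had 43 probes for 30 names.

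All 8 animals were male Sprague-Dawley rats of 277 g that were anaesthetised with urethane and fitted with a cuff able to close the trachea. In 4 occlusion animals the airway was closed for 2 to 4 breaths and reopened for 15 breaths or more, over and over for 10 minutes, and the brain was taken at once. In 4 surgical control animals the cuff was left uninflated, with brain removal 70 minutes after the surgery. The comparison asks whether airway obstruction alters transcript levels in this sensory relay region. All animals shared the anaesthetic, the surgery and the cuff, and for the occlusion animals the sources used here do not give the time from surgery to brain removal. RNA of each animal was labelled with Cy5 and hybridised to a 2-colour oligonucleotide array beside a Cy3-labelled pool of medial thalamus from all 8 animals, without a dye swap. Values of animals are listed in the order of their numbers. Every value below is a log2 ratio of the animal over that pool unless stated otherwise, so that 0 is the level of the pool. In such bulk tissue, fewer cells of a type and less RNA per cell cannot be told apart.

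A ribosome carries a single copy of nearly every ribosomal protein, so the cell makes these proteins in matched amounts, and surplus copies are degraded. Their messenger RNAs are abundant and long-lived. Most begin with a terminal oligopyrimidine (TOP) tract, an unbroken run of C and T at the transcription start through which the TOR kinase and the RNA-binding protein Larp1 control their translation. Neurons need ribosomes for the protein synthesis that follows activity, and ribosomal protein transcripts also occur in dendrites and axons. Mammalian genomes hold many processed copies of these genes, so a short probe can match more than its named gene.

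The stretches below show where the genes start, 25 bases on either side of the start site in RefSeq's annotation of the GRCr8 assembly. Capitals mark the longest pyrimidine run within 20 bases of the start. Rpl29 is shown because a probe of it followed the list most closely across animals, Rps23 because its probe held the highest single value of any animal, and Rps7 because it had the smallest p-value. Rpl5 is shown as a gene with 3 probes. Rpl37a is shown because it has a long run and its dim probe was low in the animal where most members were high. Rpl11 is shown because it has almost no run and was high there.
Rpl29 (chr8:115947618-115947667, plus strand): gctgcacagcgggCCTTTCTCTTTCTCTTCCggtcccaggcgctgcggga
Rps23 (chr2:23814492-23814541, plus strand): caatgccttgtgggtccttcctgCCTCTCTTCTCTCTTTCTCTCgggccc
Rps7 (chr6:50999421-50999470, minus strand): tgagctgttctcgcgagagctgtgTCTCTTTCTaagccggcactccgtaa
Rpl5 (chr14:1995201-1995250, minus strand): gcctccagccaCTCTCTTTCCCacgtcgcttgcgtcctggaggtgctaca
Rpl37a (chr9:81748066-81748115, plus strand): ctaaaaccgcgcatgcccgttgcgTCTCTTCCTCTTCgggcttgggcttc
Rpl11 (chr5:153560778-153560827, minus strand): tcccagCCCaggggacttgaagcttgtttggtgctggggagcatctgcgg

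Promoter sequences were matched by symbol for 59 of the 74 gene names, which gave 60 start sites. A pyrimidine run of 7 bases or more lay within 20 bases of the start in 49 of the 60 (81.7%), against 23.7% of the 33469 start sites in the table. The longest run had a median of 10 bases in the ribosomal protein genes and 5 over the whole table. Runs were counted inside that window only, so a run that crossed its edge was cut. The 6-letter strings CTTTCC and CTCTTT, read on the sense strand of the same window and able to overlap each other, each occurred in 28.3% of the ribosomal protein starts, against 1.7% and 1.6% of all starts. The string CTTCCG, read on both strands over all 300 bases of the promoter entry, occurred in 53.3% against 16.6%. These are letter matches and not measured sites.

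Most of the probes had bright spots. Of the 110, 109 were well above background in Cy5 on all 8 arrays and none of their spots was saturated. All 110 passed the filter on dim probes and were tested. By mean brightness, 84 of the 110 lay in the top 5% of tested probes and 33 of them in the top 1%, while 9 lay below the 75th percentile. Brightness depends on the probe as well as on its RNA and was not used to rank genes. Together the probes took up 4.09%, 4.50%, 4.53% and 4.54% of the background-subtracted Cy5 signal in occlusion 1 to 4. The share was 4.42%, 4.30%, 5.02% and 4.38% in the 4 controls in order. The Cy5 share of occlusion 1 was thus the lowest and that of control 3 the highest. The Cy3 share of the common pool was 3.79% on the array of control 3 and 3.90% to 4.10% on the other 7 arrays. That array was thus the lowest in Cy3, though the pool was the same, and the part of this in its log2 ratios was not tested.

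Control 3 stood apart from the other 7 animals in region markers. Of the 9 thalamic relay probes (such as Slc17a6, Prkcd and Calb2), all 9 were lowest of the 8 animals in control 3, with a median of -1.72 against -0.25 to 0.18 in the others. All 5 cortical probes (such as Neurod2 and Slc17a7) were highest there, with a median of 1.26 against -0.72 to -0.29. Of 12 probes of meninges and fibroblasts measured on every array, 11 were highest there, and the median of that list was 1.09 against -0.51 to -0.0058. The summed share of Cy5 signal on the thalamic relay probes was 0.0244% in control 3 and 0.122% to 0.192% in the others. For the cortical probes it was 0.0701% against 0.0046% to 0.0055%, and for meninges and fibroblasts 0.0468% against 0.012% to 0.0256%. No probe of these 3 lists was below background on every array. Signal on the thalamic genes of the tissue label was thus present in all 8 animals and lowest in control 3. The part of these differences in any result below was not tested. Choroid plexus probes had a median of -1.60 there against -0.70 to 0.48, and oligodendrocyte probes -0.50 against -0.34 to 0.17. The counts of probes higher or lower under occlusion, over the family and its gene lists, are given with and without control 3. Other counts include control 3 unless stated otherwise. Occlusion 3 was set apart by choroid plexus probes, whose median of 0.48 compared with -1.60 to -0.23 in the others, with Ttr at 2.28 against -2.79 to -1.76, and the part of this in the low values of that animal was not tested. In occlusion 1 the thalamic relay median was -0.25, the lowest after control 3. Of 10 oligodendrocyte probes 7 were highest in occlusion 1, and all 3 red cell probes were lowest there, with a median of -1.06. The part of this in the low values of occlusion 1 was not tested. Across the arrays 68.3% (control 1) to 80.2% of spots outside controls were well above background in Cy5. The lowest correlation between arrays was -0.18. The array of control 1 also had the most outlier spots, 853 against 136 to 423 on the others. The part of this in the low values of control 1 was not tested. The slides held both groups: slide 1 carried occlusion 1 and 2 with control 3 and 4, and slide 2 carried occlusion 3 and 4 with control 1 and 2.

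No ribosomal protein probe passed the test between occlusion and control animals. None of the 110 passed an adjusted p of 0.05 in limma, where 0 of the 31690 tested probes did (0%), and the smallest adjusted p among the 110 was 0.977. None had an unadjusted p below 0.05 either, against 969 of all tested probes (3.06%, with 1.25% lower and 1.81% higher under occlusion). In none of the 110 were the 4 occlusion animals separated from the 4 controls, against 793 of all tested probes (2.50%). The differences were small: 107 of 110 were under 0.2 in size. The lowest was -0.29, of a Rpl19 probe without a value in control 1, and the other Rpl19 probe had 0.016. The median standard error of a difference was 0.10, and the 95% interval of every probe included 0. For 101 probes that interval lay within 0.5 of 0.

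The signs of the differences were uneven. Of the 110 probes, 78 had a lower mean in the occlusion animals (70.9%), against 49.3% of all tested probes, and the median difference was -0.054 against 0.0019. With median centring of the arrays in place of loess 61 were lower (55.5%), against 49.9% of all tested probes. Array weights left 63 lower (57.3%), against 50.4% of all tested probes. The Cy5 channel alone, quantile normalised and without the pool, had 83 lower (75.5%), against 51.4% of all tested probes. The skew was seen in both subunits, in 51 of 67 large-subunit probes with a median of -0.056 and in 27 of 43 small-subunit probes with a median of -0.052. Per animal, the median over the 110 probes was -0.059, 0.060, -0.055 and 0.056 across the 4 occlusion animals. It was -0.0032, -0.0014, 0.23 and 0.022 in the 4 controls in order. The occlusion animals lay on both sides of 0, 3 controls lay within their range, and only control 3 lay above it.

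Without control 3 the skew was gone. Then 55 of 110 probes were lower under occlusion, against 49.9% of all tested probes, and the median difference was 0.0013, with -0.0077 for the large and 0.021 for the small subunit. The sign turned in 25 probes. No member passed the adjusted threshold, which 1 of all tested probes did (0.00316%), and 1 member had an unadjusted p below 0.05, against 4.12% of all tested probes. That probe was Rpl14, with a difference of 0.18, an unadjusted p of 0.0172 and an adjusted p of 0.932 or more in limma. Within slide 2, which does not hold control 3, 53 of 105 probes were lower (all tested probes, 52.0%) and the median was -0.00075. Within slide 1, which does, 88 of 110 were lower (all tested probes, 48.2%) and the median was -0.14. No member passed either threshold within a slide, where 4.07% of all tested probes on slide 1 and 2.66% on slide 2 had an unadjusted p below 0.05 and 0% passed the adjusted one.

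**Figure D1:**
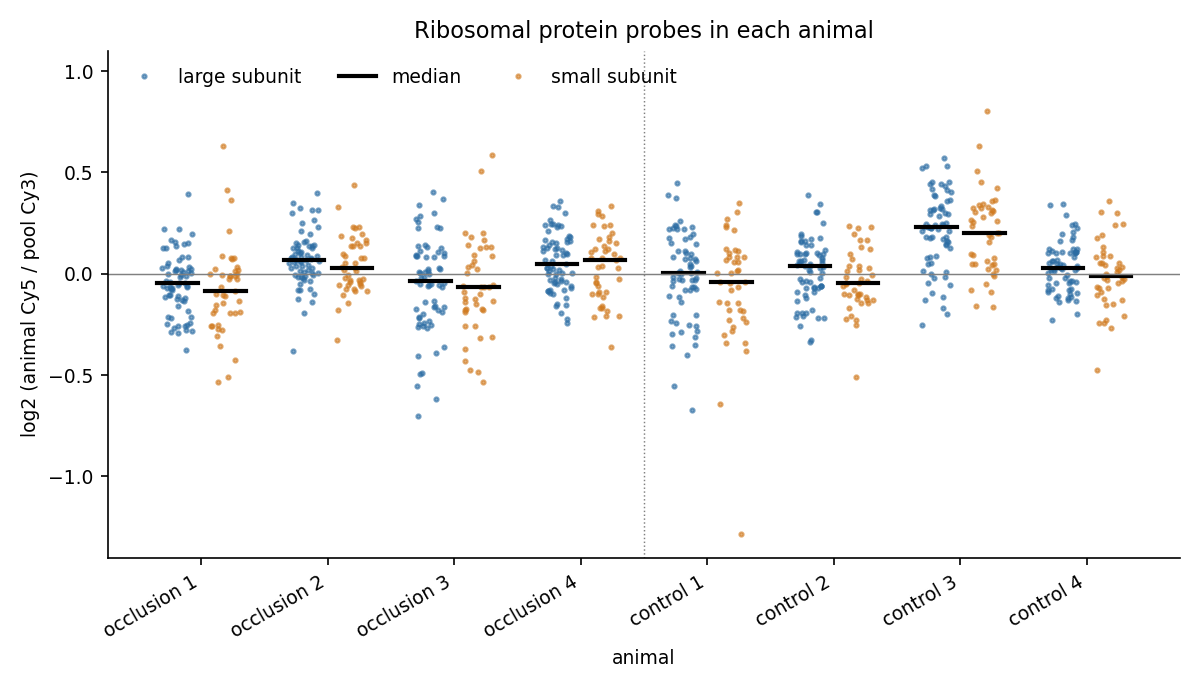
Log2 ratio of each ribosomal protein probe (vertical axis) in each of the 8 animals (horizontal axis), with the large subunit in blue, the small subunit in orange and black bars for their medians. The medians of control 3 are 0.23 and 0.20, and those of the other 7 animals lie between -0.084 and 0.066.

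**Figure D2:**
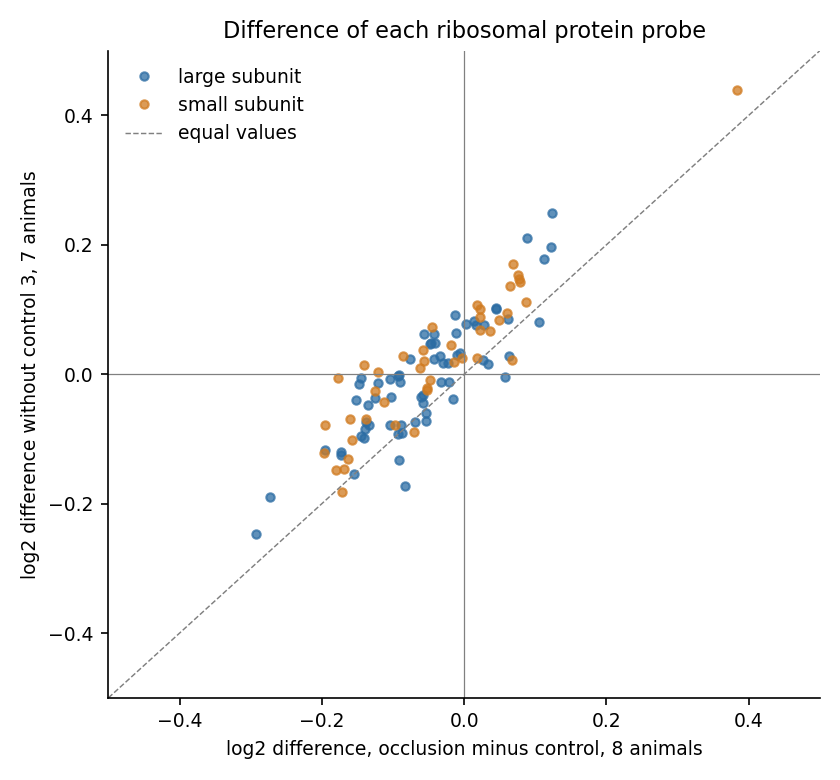
Log2 difference of each probe, occlusion minus control, with all 8 animals (horizontal axis) and without control 3 (vertical axis), with a dashed line of equal values. Most points lie above the line, and the number of probes below 0 goes from 78 on the horizontal to 55 on the vertical axis.

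Of the 105 ribosomal protein probes measured on all 8 arrays, 65 had their highest value in control 3, 41 of the large and 24 of the small subunit (61.9%). Over all tested probes measured on every array control 3 was highest in 24.3% and lowest in 24.4%, so this animal was often extreme in either direction, but it was the lowest of the 8 in 4 of the 105. Occlusion 1, occlusion 3 and control 1 shared most of the low values, with the lowest value in 25, 24 and 21 probes. In control 3 single probes ran from -0.25 to 0.80, and 88 of the 105 were above 0.

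**Figure D3:**
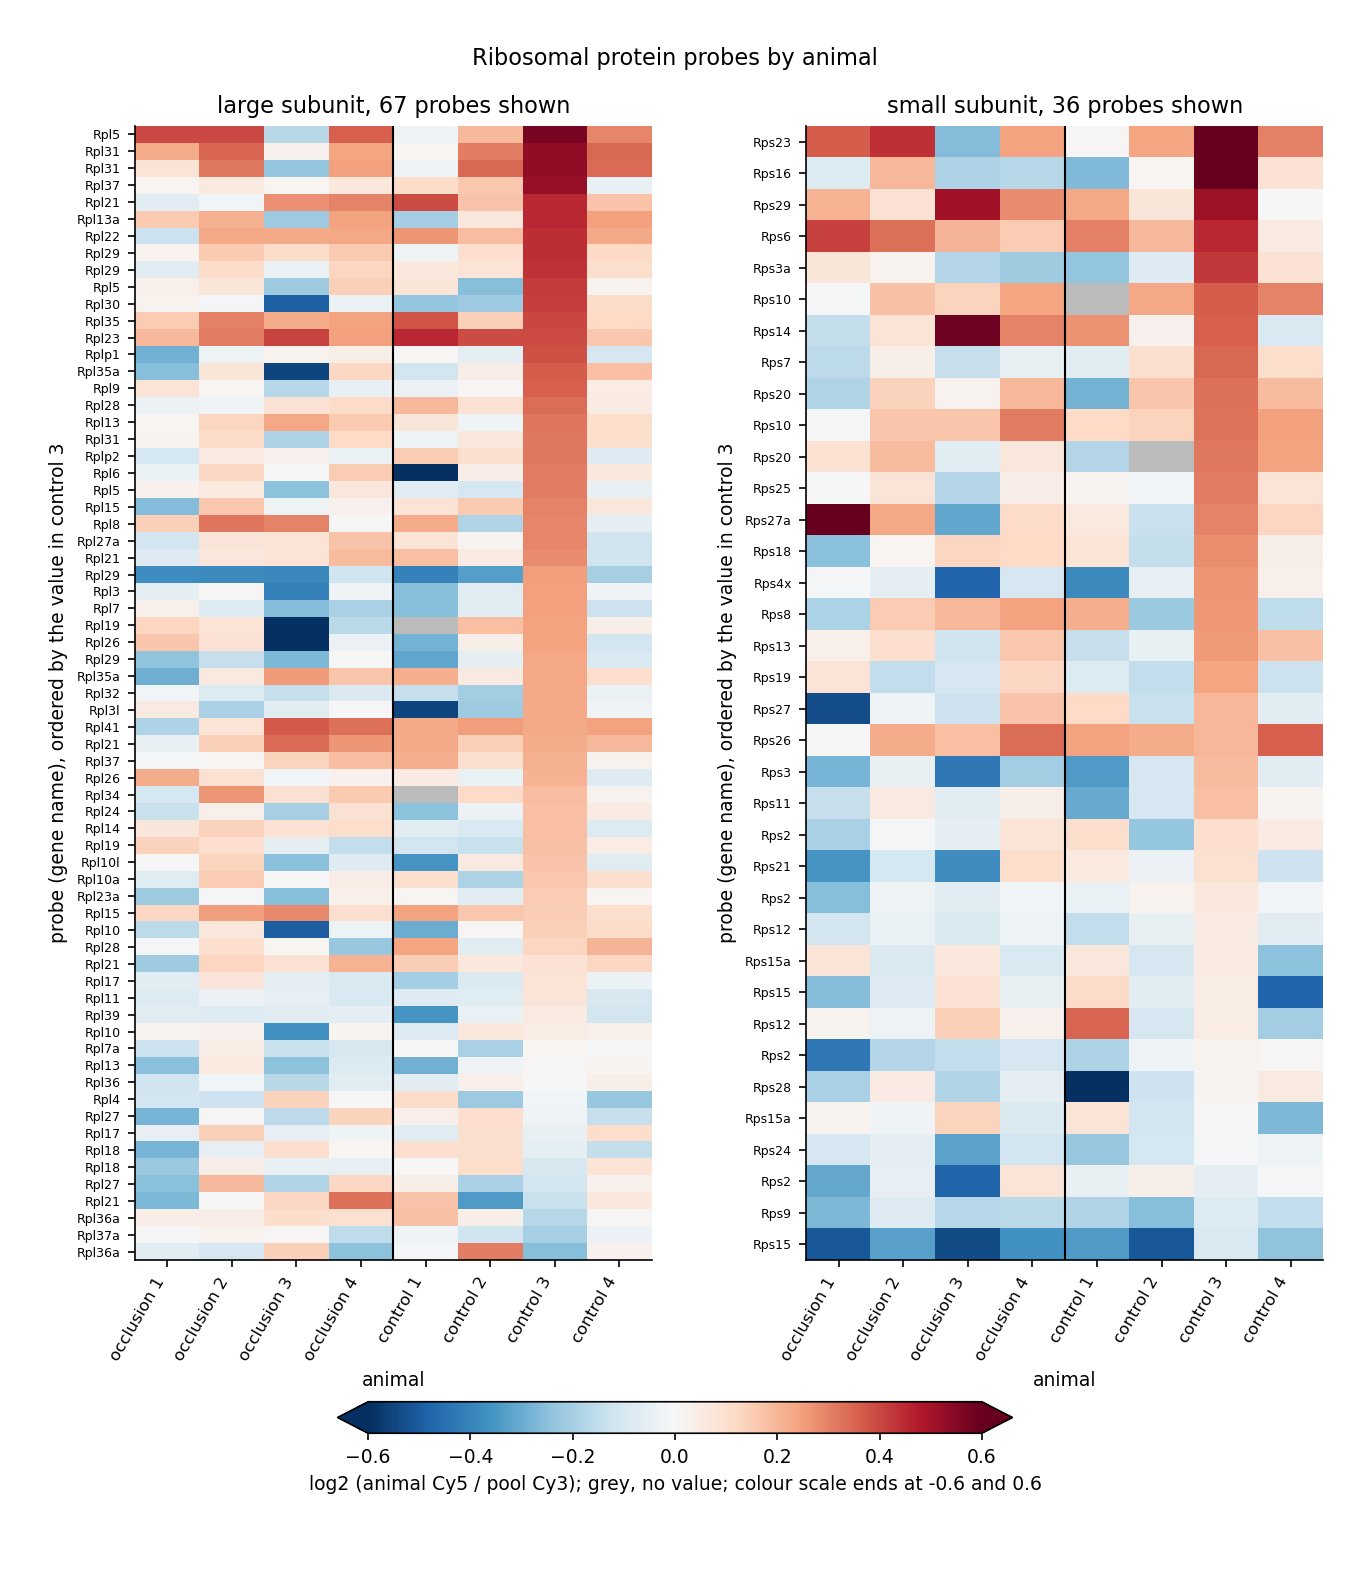
Log2 ratio (colour, blue below and red above the pool, grey where no value was left) of 67 large-subunit probes and 36 small-subunit probes (rows, ordered by their value in control 3) in the 8 animals (columns). The red column is control 3, highest of the 8 in 65 of the 105 fully measured member probes, and the few dark blue cells are isolated low values such as Rpl6 in control 1 at -0.67.

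The large and the small subunit had similar medians within each animal. The median of the large subunit was -0.047, 0.066, -0.038 and 0.047 in the 4 occlusion animals in order and 0.0023, 0.036, 0.23 and 0.028 in the 4 controls in order. For the small subunit it was -0.084, 0.026, -0.065 and 0.066, and -0.040, -0.044, 0.20 and -0.012. The large subunit exceeded the small by 0.037, 0.040 and 0.027 in occlusion 1 to 3 and fell short by 0.019 in occlusion 4. In control 1 to 4 the large subunit exceeded the small by 0.042, 0.080, 0.030 and 0.040. These gaps averaged 0.021 ± 0.027 (SD, n = 4) in the occlusion and 0.048 ± 0.022 (SD, n = 4) in the control animals, with ranges that overlapped. In control 3 both subunits were high, and its gap lay within the range of the other animals.

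The stalk proteins Rplp1 and Rplp2, which recruit elongation factors to the large subunit, had lower means under occlusion, neither past the test. Rplp1 was -0.29, -0.030, 0.021 and 0.037 in the 4 occlusion animals in order and 0.0058, -0.059, 0.38 and -0.099 in the 4 controls in order, a difference of -0.12 ± 0.12 (SE) with an unadjusted p of 0.345 in limma. Its probe was printed on 10 spots of each array, and the SD between these spots ranged from 0.041 to 0.13 per animal, and the spots of control 3 ran from 0.24 to 0.59 and those of occlusion 1 from -0.36 to -0.23. Without control 3 the Rplp1 difference was -0.014. Rplp2 was -0.10, 0.052, 0.028 and -0.042 in the occlusion animals and 0.15, 0.095, 0.32 and -0.076 in the controls, a difference of -0.14 ± 0.090 that was -0.073 without control 3. Control 3 was again the highest animal and the groups overlapped. No probe carried the name of the stalk base, Rplp0.

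Rpl5 and Rpl11 form, with a small ribosomal RNA, a particle that binds the ubiquitin ligase Mdm2 when ribosome assembly fails. Rpl11 was nearly level, at -0.080, -0.037, -0.050 and -0.094 under occlusion and -0.079, -0.073, 0.078 and -0.094 in controls. Its difference of -0.023 had a 95% interval of -0.17 to 0.12. Rpl5 had 3 probes that correlated at 0.70 to 0.92 across animals. The first of them was 0.39, 0.40, -0.16 and 0.36 under occlusion and -0.020, 0.19, 0.57 and 0.29 in controls. All 3 Rpl5 probes had their lowest occlusion value in occlusion 3 and their highest value of all in control 3, and their differences were -0.056 to -0.013. Without control 3 these turned to between 0.047 and 0.091.

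Rpl3, next to the peptidyl transferase centre, was -0.055, 0.0060, -0.40 and -0.022 in the 4 occlusion animals in order and -0.26, -0.071, 0.25 and -0.023 in the 4 controls in order. Its difference of -0.093 ± 0.13 became -0.0019 without control 3. Rpl4, which lines the exit tunnel, was -0.12, -0.12, 0.14 and -0.0028 under occlusion and 0.11, -0.22, -0.017 and -0.23 in controls, with its low and high values spread over both groups. Rpl10, which joins the large subunit late and lets the subunits pair, had 2 probes at r = 0.88. The first probe was -0.16, 0.066, -0.50 and -0.029 under occlusion and -0.30, 0.0073, 0.14 and 0.11 in controls. Both Rpl10 probes were lowest in occlusion 3, at -0.50 and -0.36, and their differences were -0.15 and -0.089, or -0.095 and -0.078 without control 3. Rpl39, a short protein of the exit tunnel, was tight in the occlusion animals at -0.066, -0.078, -0.067 and -0.060 and was -0.35, -0.042, 0.054 and -0.11 in the controls, with control 1 low.

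Among the other large-subunit proteins, Rpl23, which also binds Mdm2, was above the pool in every animal. It was 0.19, 0.31, 0.40 and 0.25 under occlusion and 0.45, 0.39, 0.39 and 0.16 in controls. Rpl41, the smallest ribosomal protein, was -0.19, 0.082, 0.37 and 0.33 in occlusion 1 to 4 against 0.23, 0.25, 0.23 and 0.24 in the controls. The 4 controls of Rpl41 agreed closely, and the occlusion animals lay on both sides of them. Rpl22, an RNA-binding protein of the subunit surface, was -0.13, 0.23, 0.23 and 0.23 under occlusion and 0.26, 0.18, 0.44 and 0.23 in controls, with only occlusion 1 below the pool. Rpl13a, which can leave the ribosome to repress inflammatory messages in myeloid cells, was 0.16, 0.21, -0.22 and 0.24 under occlusion and -0.20, 0.066, 0.45 and 0.25 in controls. Rpl24 was -0.13, 0.029, -0.20 and 0.091 under occlusion and -0.24, -0.034, 0.18 and 0.048 in controls. The differences of these 5 genes lay between -0.14 and -0.042, each with a 95% interval that included 0.

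Rps6, the small-subunit protein phosphorylated by the S6 kinases and widely used as a mark of neuronal activity at the protein level, showed no difference past the test in its transcript. It was 0.41, 0.33, 0.20 and 0.15 under occlusion and 0.30, 0.20, 0.45 and 0.054 in controls, above the pool in all 8 animals, with a difference of 0.022 and an interval of -0.21 to 0.25. Rps3, at the site where messenger RNA enters, was -0.28, -0.042, -0.43 and -0.21 under occlusion and -0.34, -0.099, 0.19 and -0.070 in controls, a difference of -0.16 that was -0.070 without control 3. Rps4x was -0.012, -0.055, -0.48 and -0.099 under occlusion and -0.38, -0.049, 0.26 and 0.030 in controls. Rps14 was -0.14, 0.080, 0.59 and 0.30 under occlusion and 0.27, 0.028, 0.36 and -0.090 in controls, with its highest value in occlusion 3. Rps19, mutated in Diamond-Blackfan anaemia, was 0.077, -0.15, -0.10 and 0.12 under occlusion and -0.082, -0.15, 0.24 and -0.13 in controls. Rps27, a zinc-finger protein, was -0.53, -0.025, -0.12 and 0.17 under occlusion and 0.12, -0.13, 0.20 and -0.066 in controls, lowest in occlusion 1. Rps27a, made as a fusion with ubiquitin, was highest in occlusion 1 and lowest in occlusion 3, at 0.63, 0.23, -0.31 and 0.11, and the controls lay between at 0.058, -0.13, 0.30 and 0.13. In none of these 7 genes did the groups separate.

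Paralogs known for expression in muscle or testis were also on the array. Rpl3l, the striated muscle form of Rpl3, was 0.052, -0.19, -0.063 and -0.0029 under occlusion and -0.55, -0.21, 0.23 and -0.023 in controls, from a dim probe at the 43.2 percentile of brightness. The testis form of Rpl10, Rpl10l, was 0.0040, 0.14, -0.25 and -0.078 under occlusion and -0.36, 0.054, 0.17 and -0.074 in controls. Its probe, at the 84.8 percentile, was low in occlusion 3 and control 1, as was the first Rpl10 probe, and whether it reads Rpl10 transcripts was not tested. No probe carried the names Rpl38, Rpl22l1, Rpl36al, Rpl39l, Rps27l or Rpl7l1.

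**Figure D4:**
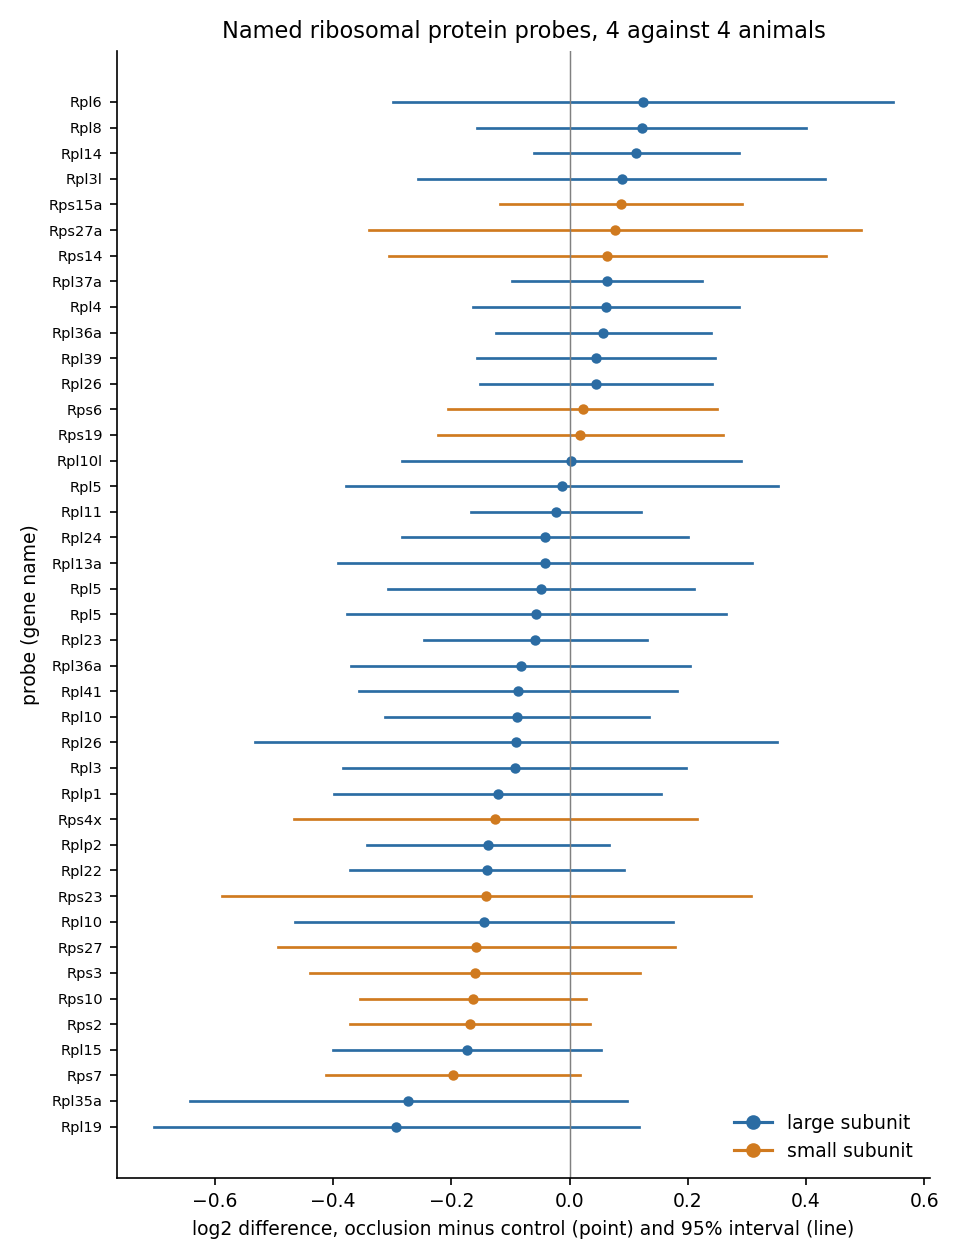
Log2 difference, occlusion minus control, with its 95% interval (horizontal axis) for 41 named ribosomal protein probes (vertical axis, gene names), with the large subunit in blue and the small subunit in orange. Every interval includes 0, and the widest shown belongs to Rps23, at -0.59 to 0.31.

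The 5 probes with the smallest unadjusted p among those lower under occlusion were Rps7, Rps10, Rps2, Rpl15 and Rpl35a. Rps7 was -0.15, 0.033, -0.14 and -0.043 in the 4 occlusion animals in order and -0.066, 0.097, 0.35 and 0.11 in the 4 controls in order, a difference of -0.20 ± 0.095 with an unadjusted p of 0.0686 and an adjusted p of 0.977. The groups overlapped, since control 1 lay below occlusion 2 and 4, and the difference was -0.12 without control 3. Rps10 was -0.012, 0.17, 0.13 and 0.24 under occlusion and 0.23, 0.36 and 0.30 in control 2 to 4, with no value left for control 1, whose outlier spot was dropped. A second Rps10 probe, which kept all 8 animals, had a difference of -0.048. Rps2 was -0.43, -0.18, -0.15 and -0.099 under occlusion and -0.18, -0.024, 0.022 and 0.0074 in controls, and its 4 probes all had differences below 0, from -0.17 to -0.052 (from -0.18 to -0.021 without control 3), with occlusion 1 between -0.43 and -0.19. Rpl15 was -0.26, 0.16, -0.020 and 0.026 under occlusion and 0.084, 0.15, 0.30 and 0.067 in controls, while its other probe had a difference of 0.027. Rpl35a was -0.26, 0.071, -0.55 and 0.12 under occlusion and -0.11, 0.039, 0.37 and 0.18 in controls, lowest in occlusion 1 and 3. The other Rpl35a probe correlated with it at 0.15 and was highest in occlusion 3, at 0.26.

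In the other direction, Rpl14, Rpl8, Rps15a and Rpl37a were among the 5 probes with the smallest unadjusted p. Rpl14 was 0.070, 0.14, 0.086 and 0.10 under occlusion, a narrow range, and -0.064, -0.090, 0.18 and -0.082 in controls. Control 3 alone among the controls lay above the occlusion animals. The Rpl14 difference was 0.11 ± 0.076 with all animals and 0.18 without control 3. Rpl8 was 0.15, 0.32, 0.30 and 0.0039 under occlusion and 0.22, -0.18, 0.29 and -0.056 in controls. Rps15a was 0.020, -0.021, 0.13 and -0.088 under occlusion and 0.082, -0.12, -0.0018 and -0.27 in controls, and its second probe had the same pattern at r = 0.93. Rpl37a was 0.00021, 0.020, 0.0076 and -0.15 under occlusion and -0.025, -0.12, -0.20 and -0.036 in controls, from a probe at the 21.2 percentile of brightness.

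Among the 5 probes that varied most across animals, Rpl6, Rpl26 and Rpl19 did so through single values. Rpl6 read -0.67 in control 1 and -0.039 to 0.31 elsewhere, and its difference of 0.12 turned to -0.079 without that animal. Low values in occlusion 3 set apart a probe of Rpl26, at -0.70, and a probe of Rpl19, at -0.62. The second probes of these genes read -0.018 and -0.054 in the same animal. Rps23, which takes part in decoding, differed from these in that its spread came from several animals, at 0.36, 0.44, -0.26 and 0.24 under occlusion and 0.0053, 0.24, 0.80 and 0.30 in controls.

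Several probes per gene name allowed a check of each gene against itself. Of the 24 gene names with more than 1 tested probe, 13 had differences of 1 sign and 11 of both signs. Agreement across the 8 animals was close in Rpl31 (3 probes, r from 0.91 to 0.95), Rpl29 (4 probes, 0.89 to 0.93) and Rps15a (0.93). It was poor in Rps12 (-0.44) and Rps15 (-0.069). These are correlations over 8 animals that share control 3. The design positions give a further limit on identity: of 87 probes whose gene name has a RefSeq promoter, the design placed 15 probes of 8 names on another chromosome of the older rn3 assembly than RefSeq gives in GRCr8. Among them were the Rps7 probe, placed on chromosome 15 rather than 6, both Rps10 probes, both Rpl35a probes and all 5 Rpl21 probes. The 2 probes named Rpl36a carry an accession that RefSeq now lists as Rpl36al1, and a Rpl37 probe carries that of Rpl37l1. RefSeq lists 858 pseudogenes with ribosomal protein symbols, and whether these values include signal from copies was not tested.

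A shared pattern across animals was described by correlating each probe with the median of the other ribosomal protein probes. The coefficients include control 3, and no share over all tested probes stands beside their counts. The coefficient was 0.8 or more in 18 probes and above 0.5 in 66 of 110, led by a Rpl29 probe at 0.99. This Rpl29 probe was -0.062, 0.11, -0.038 and 0.13 in the 4 occlusion animals in order and 0.062, 0.080, 0.43 and 0.11 in the 4 controls in order, so control 3 was the highest and the rest lay within a narrow range. In 12 probes the coefficient was below 0, lowest for a Rpl36a probe at -0.79 and for the dim Rpl37a probe at -0.75. The 2 Rpl36a probes were lowest of all animals in control 3, at -0.17 and -0.25. Between pairs of member probes the median correlation was 0.32 (5995 pairs), nearly the same within the large subunit (0.30), within the small (0.33) and between them (0.33). Without control 3 the median over pairs was 0.14. The points are 8 animals, all set against the same pool.

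Outside the family, the 10 tested probes with a gene symbol most like the median of the ribosomal protein probes, of 12697 looked at, had correlations of 0.93 to 0.96 over the 8 animals. They were Ltbp4, Gltscr2, Slc1a2, Schip1, Vps24, Crym, Glrx1, Cyfip2, Olr514 and Neud4. All 10 had their highest value in control 3. That value was 0.26 for Ltbp4, 0.32 for Gltscr2 and 2.55 for Crym, whose other animals lay between -2.44 and -1.31.

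Genes of the wider translation pathway were read from lists chosen together with the members. Other TOP messenger RNAs (33 probes, 18 of 23 gene names matched, among them Eef1a1, Eef2, Tpt1 and Rpsa) had 18 probes higher and 15 lower under occlusion. Their median difference was 0.034, and none had an unadjusted p below 0.05 (all tested probes, 3.06%). Their median in control 3 was 0.048, within the -0.11 to 0.049 of the other animals. Their summed share of Cy5 signal was 0.865% in control 3 and 0.742% to 0.833% in the others, so by that measure control 3 was the highest in this list too. Without control 3, 26 TOP probes were higher and 7 lower, with a median of 0.052. Rpsa and Fau, small-subunit proteins whose names lie outside the rule, had differences of -0.019 and 0.062 (2 Rpsa probes) and of -0.097 and -0.057 (2 Fau probes). Translation initiation factors (73 probes) had 40 higher and 33 lower with a median of 0.0040 (37 and 36 without control 3). A single probe of these 73, for Eif1a, had an unadjusted p below 0.05 (all tested probes, 3.06%), with a difference of 0.29. Mitochondrial ribosomal proteins (71 probes), which serve a separate ribosome, had 32 higher and 39 lower with a median of -0.0064, and control 3 was lowest in 20 of 70. Without that animal 23 of these probes were higher and 48 lower, with a median of -0.036. The 1 mitochondrial probe of 71 with an unadjusted p below 0.05 (all tested probes, 3.06%) was Mrpl36, with a difference of -0.31. The Myc family list had 4 probes, for Myc, Max, Mxi1 and Mxd1, which do not all act in the same direction. Of these, 2 were higher and 2 lower (3 and 1 without control 3), none with an unadjusted p below 0.05 (all tested probes, 3.06%). Their median in control 3 was 0.52, against -0.11 to 0.089 in the others. These probes were dim, with a summed share of Cy5 signal of 0.0014% in control 3 and 0.0006% to 0.0008% in the others.

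Ribosome biogenesis genes (17 probes) had 9 higher and 8 lower with a median of 0.0017 (8 and 9 without control 3). In 3 of the 17 the groups did not overlap and the unadjusted p was below 0.05, against 2.50% and 3.06% of all tested probes. Both probes with the smallest p in this list were for Nolc1, a nucleolar chaperone of RNA-modifying particles. One Nolc1 probe was 0.11, 0.020, 0.18 and 0.057 in the 4 occlusion animals in order and -0.22, -0.094, -0.089 and -0.088 in the 4 controls in order, a difference of 0.21 with an unadjusted p of 0.0101. The groups of this probe did not overlap, and a second Nolc1 probe separated them as well at 0.21. The remaining Nolc1 probe read -0.063, and none passed the adjusted threshold. Of the 2 Utp14a probes 1 separated the groups, at 0.17, and the other read 0.024. Among S6 kinase and TOR pathway genes (21 probes) 8 were higher and 13 lower with a median of -0.026 (12 and 9 without control 3). Rps6kb1, the main S6 kinase, had a difference of 0.20 and Larp1 had -0.033 and -0.070. The 1 probe of these 21 with an unadjusted p below 0.05 (all tested probes, 3.06%) was Pdk1 at -0.30. That symbol is used both for a pyruvate dehydrogenase kinase and for a kinase upstream of Akt. Which of them the probe measures was not settled.

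**Figure D5:**
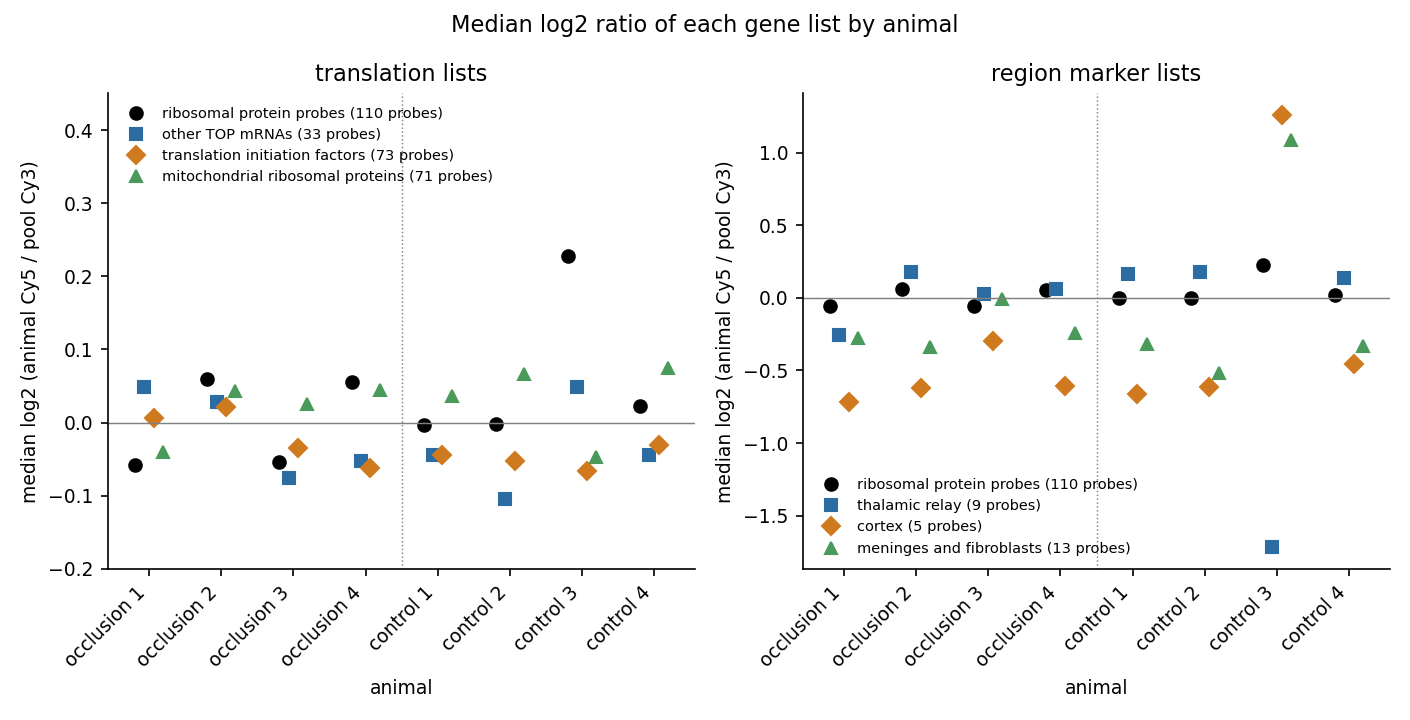
Median log2 ratio (vertical axes) of gene lists in each of the 8 animals (horizontal axes), for lists of the translation machinery on the left and region markers on the right. The ribosomal protein median is 0.23 in control 3, where the thalamic relay median is -1.72 and the cortical median 1.26, and the 3 other lists on the left (other TOP mRNAs, initiation factors and mitochondrial ribosomal proteins) lie between -0.11 and 0.075 in all animals.

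The members were also described by the pyrimidine run at their start site. Among the 48 gene names with a run of 7 or more, 58 of 73 probes were lower under occlusion with a median difference of -0.058. Among the 11 names with a shorter run, 8 of 14 probes were lower with a median of -0.019. Among the 15 names without a promoter entry, 12 of 23 probes were lower with a median of -0.042. Over all tested probes 49.3% were lower. Without control 3 the counts were 43 of 73, 6 of 14 and 6 of 23, with medians of -0.014, 0.018 and 0.028. In control 3 the medians of these sets were 0.23, 0.22 and 0.25. Rpl37a, with a run of 13 bases in the sequence printed above, has a dim probe, well above background in Cy3 on 6 of 8 arrays. It read -0.20 in control 3, its lowest animal. Rpl11, with a run of 3 bases, read 0.078 there and was highest in that animal, as was Rpl29 with a run of 18. The start sites are annotated positions and were not measured in this tissue.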

How the data were processed

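Per the file headers, the authors scanned and quantified the arrays with Agilent Feature Extraction 9.5.1.1. Deposited for each spot are the intensity of Cy5 and Cy3 and the log10 ratio computed by that software. These log10 ratios recur in the deposited value table, within 0.0050 over 45018 spots. From the mean signals, normexp (offset 50) removed background and a loess curve per array removed dye bias. Control spots and outliers did not enter that curve, outliers were then discarded, and repeated spots were averaged. A probe was tested if at least 4 arrays had it well above the Cy5 background and each group kept 2 values or more. The test was limma 3.58.1 (R 4.3.3), occlusion minus control, two-sided, with Benjamini-Hochberg adjustment over all 31690 probes. Replicates are animals, and their number limits the precision. Fits were tested on simulated data. Members and lists were chosen with earlier results of these data known. Named are a panel fixed by role, the 5 probes with the smallest unadjusted p in each direction and the 5 of largest SD, less items not reported here. Replicate numbers did not pair animals (correlations of deviations -0.13, 0.13, 0.019 and 0.076). Alternatives covered background correction, normalisation, the software's ratios, the dim-probe filter, the brightest probe per gene, saturation, Cy5 alone, slide, replicate block, array weights and leaving out each animal.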

Additional observations from a re-analysis of the deposited data

Results flagged for a closer look

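In 108 groups of 4 animals, 18 single values lay apart from the other 3 animals of their group by a gap wide against the group's range (Dixon's test at its 95% critical value). Chance alone marks about 1 group in 20, a rate for a single group that was not chosen by its values. The groups here share animals and probes, and some probes were named for their p or SD. The count of 18 can therefore not be set against that rate. Of the 18, 11 belong to control 3, which is 1 animal on 1 array.

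In control 3 the median log2 ratio was 0.2281 over all ribosomal protein probes, 0.2285 over the large and 0.1987 over the small subunit, above the other controls. Its ribosomal protein share of Cy5 signal was 5.0171%. The thalamic relay median was -1.7166, the cortex median 1.2585 and the meninges and fibroblast median 1.0883. Single probes apart from the other controls there were Rps19 at 0.2367, Rpl11 at 0.0782, Rpl14 at 0.1811 and a Rpl5 probe at 0.3121.

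In occlusion 3, Rpl3 read -0.4039, a Rpl10 probe -0.3614, and Rpl5 probes -0.1648 and -0.2481, all below the other occlusion animals. The choroid plexus median of occlusion 3, which was not put to Dixon's test, was 0.48, against -1.60 to -0.23 in all other animals of both groups. In occlusion 1 the ribosomal protein share of Cy5 signal was 4.0876% and Rpl22 read -0.1268, both the lowest of the group. In occlusion 4, the dim Rpl37a probe read -0.1525 against 0.00021 to 0.020 in the other occlusion animals. The cause of these values was not tested.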

How the results depend on the processing

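No ribosomal protein probe passed an adjusted p of 0.05 in limma under any setting run. With an unadjusted p below 0.05 there were 0 probes (all tested probes, 3.06%), and 2 with the Cy5 channel alone (2.64%) or with array weights (5.03%). Leaving out 1 animal at a time gave 0 to 2, against 1.78% to 5.33% of all tested probes. Over all tested probes 49.3% were lower under occlusion, and 48.2% to 51.3% with 1 animal left out. The count of probes lower under occlusion was 78, and 55 (without control 3) to 85 (without control 1) with 1 animal left out, when the median difference ran from -0.083 to 0.0013. That range was -0.090 to -0.0077 for the large and -0.077 to 0.021 for the small subunit. On slide 1 alone the small-subunit median was -0.1506. Median centring in place of loess left 61 of 110 lower (55.5%, all tested probes 49.9%) and array weights 63 (57.3%, all tested probes 50.4%). The scanner software's ratios left 80 lower (72.7%), where 54.4% of all tested probes were lower. With the Cy5 channel alone 83 were lower (75.5%, all tested probes 51.4%). With 1 probe per gene name, 50 of 74 were lower (67.6%), against 49.8% of all tested probes. A loess without the ribosomal protein probes, chosen after seeing the data, gave 78. With a replicate block, 77 probes were lower, the median was -0.0537 and none passed, and the replicate numbers share no more than a number. Of 712 values of 42 named probes under the alternatives, 685 moved by less than 1 standard error and 27 by more, none past the adjusted threshold. The 4 animals in a group, with a median standard error of 0.10, limit what could be detected.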
